A study of Mus musculus with 12 samples.

Results

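The genes described are those of the respiratory chain and ATP synthase, 123 of the 55901 genes in the deposited table. They were chosen by name: 86 protein-coding nuclear genes whose symbols begin with Nduf, Sdh, Uqcr, Cox4 to Cox8 or Atp5 (subunit names only), and all 37 genes of the mitochondrial genome, of which 13 encode proteins, 2 encode ribosomal RNAs and 22 encode transfer RNAs. Subunits with names outside this rule, such as Cyc1 of complex III and Ndufab1 of complex I, were left out. Of the nuclear members, 36 belong to complex I, 4 to complex II, 8 to complex III, 20 to complex IV and 18 to complex V. Of the mitochondrially encoded proteins, 7 belong to complex I, 1 to complex III, 3 to complex IV and 2 to complex V.

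RNA was sequenced from primary neurons of the cortex of newborn C57BL/6J mice, cultured with arabinosylcytosine, an agent that holds back dividing glial cells. The 3 groups held 4 libraries each. Control cultures were left uninjured, Trauma cultures were scratched and collected after 24 h, and Trauma+TGF-β1 cultures were scratched and kept for 24 h with 10 ng/mL transforming growth factor-β1, a secreted cytokine. No transgene or deletion was used, and the labels do not say whether the libraries of a group came from separate cultures or animals, so the p-values measure the spread between these libraries only.

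The respiratory chain passes electrons from NADH, at complex I, and from succinate, at complex II, through ubiquinone, complex III, cytochrome c and complex IV to oxygen. Complexes I, III and IV pump protons out of the mitochondrial matrix, and complex V, the ATP synthase, uses their return to make ATP, on which neurons depend for ion pumping and synaptic transmission. The subunits are products of both genomes: some membrane subunits of complexes I, III, IV and V are made inside the mitochondrion from its own DNA, which is transcribed from both strands as long RNAs, while every subunit of complex II and all other subunits are nuclear products that are imported.

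Levels are FPKM as deposited, that is fragments per kilobase of gene length, with a scaling of each library by the authors. Median-of-ratios factors recomputed from these values were 1, so the scaling was not to the fragments mapped in the library alone. The reads on genes numbered 15052486 in the shallowest library and 17381671 in the deepest. Differences are log2 fold changes on the log2(FPKM + 0.1) scale, with their standard errors (SE), from one limma fit of the 12 libraries over the 15016 genes with a mean of at least 0.5 FPKM, and a gene was called when its Benjamini-Hochberg adjusted p over all those genes was at most 0.05. The median of all genes tested lay at -0.01 in Trauma against Control, at 0.00 in Trauma+TGF-β1 against Trauma and at -0.01 in Trauma+TGF-β1 against Control. RNA of whole cultures cannot tell fewer cells of a type from less RNA per cell.

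All 8 neuron markers were measured, with Tubb3, a neuronal tubulin, at 960 ± 31.4 FPKM in Control (SD, n = 4), and glia were present, with Gfap, the astrocyte filament protein, at 47.7 ± 4.10 FPKM in Control. The neuron markers summed to 1356 to 1423 FPKM over Control, 1214 to 1292 over Trauma and 1145 to 1185 over Trauma+TGF-β1. Most of that sum was Tubb3. Its mean was 842 ± 28.4 FPKM after injury alone and 739 ± 24.6 once TGF-β1 was added (SD, n = 4). In Trauma+TGF-β1 against Trauma 1 of the 8 was called higher and 2 lower, with a median log2 fold change of 0.04. Against Control, Trauma had 1 called higher and 2 lower (median -0.05), and Trauma+TGF-β1 had 3 higher and 4 lower (median -0.06). The 7 astrocyte markers summed to 133 to 145 FPKM over Control, 178 to 220 over Trauma and 201 to 220 over Trauma+TGF-β1. Of the 7, 6 were called higher in Trauma than in Control. From Trauma to Trauma+TGF-β1, 1 of the 7 was called higher and 2 lower. The 7 oligodendrocyte lineage markers summed to 40.9 to 46.2 FPKM over Control and to 53.3 to 60.9 over the injured groups. The 6 microglia markers summed to between 8.41 and 14.9 FPKM in all libraries. Among them C1qa held 94 to 147 reads per Control library, and Tmem119 0 to 5 there and 7 to 16 in Trauma+TGF-β1. Of the 3 tested, 1 was called higher in Trauma than in Control, C1qa (0.55, limma adjusted p = 0.035), and 0 without Control library 1. The 6 fibroblast and vessel markers summed to between 2.07 and 3.81 FPKM, with the endothelial gene Cldn5 at 0 to 3 reads per Control library. The part of these cell types in the differences below was not tested. Control library 1 stood apart from the other 3 Control libraries, with 2.75% of its reads on the mitochondrially encoded protein genes, and the results against Control are also given without it where its values bear on them.

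Seen as shares of all reads on genes, the nuclear members stood lower and the mitochondrial ones higher in Trauma+TGF-β1 than in Trauma. The 86 nuclear members took 0.834% ± 0.0186 of the reads in Control, 0.878% ± 0.0288 with Trauma and 0.763% ± 0.0104 once TGF-β1 was added (SD, n = 4), and the highest Trauma+TGF-β1 library, at 0.771%, lay below the lowest Trauma library, at 0.853%, and the lowest Control library, at 0.815%. The 13 mitochondrially encoded protein genes took 2.25% ± 0.344, 2.09% ± 0.0490 and 2.82% ± 0.239 in the same order (SD, n = 4), and the Control mean was 2.09% ± 0.109 (SD, n = 3) without Control library 1. The lowest Trauma+TGF-β1 library held 2.52% and the highest Trauma library 2.14%, whereas Control library 1 lay within the Trauma+TGF-β1 range.

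**Figure D1:**
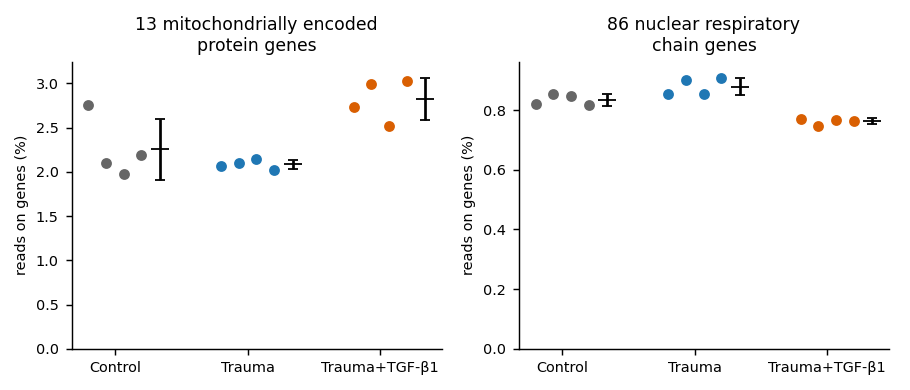
Share of each library's reads on genes, in percent, taken by the 13 mitochondrially encoded protein genes (left) and the 86 nuclear members (right). Points are libraries, and the bar beside them gives the mean ± SD of 4 libraries; in Trauma+TGF-β1 the mitochondrial share lay above and the nuclear share below every Trauma library, with Control library 1 at 2.75% on the left.

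Scratch injury alone left the members without called differences, apart from a ribosomal RNA and a transfer RNA of the mitochondrion. The comparison of Trauma with Control asks what the injury changed after 24 h. Of the 86 nuclear members 79 were tested, and limma called 0 of them, where 2.7% of all genes tested were called lower and 3.3% higher. At an unadjusted p under 0.05 there were 8, and voom, a fit to the reads recovered from FPKM, called 1 higher, Ndufb3, an accessory subunit of complex I. Leaving out Control library 2 gave 2 called higher, and leaving out Trauma library 1 or 3 gave 1. Their median was 0.04, with a range from -0.56 to 0.37, and without Control library 1 it was 0.02. Of the 13 mitochondrially encoded protein genes limma called 0, with 0 at an unadjusted p under 0.05 and 0 by voom, and their median was -0.10 (-0.04 without Control library 1). mt-Rnr1, the RNA of the small mitochondrial ribosomal subunit, was at 733, 611, 564 and 628 FPKM in the 4 Control libraries and at 496, 524, 541 and 498 in the 4 Trauma libraries, and fell by 0.30 on the log2 scale (SE 0.07, adjusted p = 0.030, limma). The groups did not overlap, and without Control library 1 the change was -0.22 with an adjusted p of 0.033. mt-Rnr2, the RNA of the large subunit, had a log2 fold change of -0.25 (adjusted p = 0.21), or -0.14 (adjusted p = 0.36) without that library. The serine transfer RNA gene mt-Ts2 fell by 0.89 (adjusted p = 0.027), and without Control library 1 the change was -0.74 and was no longer called (adjusted p = 0.060).

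With TGF-β1 added to the injury, 40 of the 79 nuclear members tested were lower than in Trauma and 0 were higher, and members of all 5 complexes were among the 40. This comparison asks what the cytokine changed in injured cultures. Of all genes tested 7.71% were called lower and 4.4% higher. Of the members 70 of 79 had a fold change below 0, the median was -0.20, against 0.00 for all genes tested, and the range was -1.11 to 0.37. The 4 libraries of Trauma+TGF-β1 all lay below the 4 of Trauma in 44 of the 79 members, against 12.0% of all genes tested, and all above them in 0, against 10.2%. The calls of limma were spread over the complexes as follows.

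In complex I, the NADH dehydrogenase, 21 of the 35 nuclear members tested were called lower, with a median of -0.32. The 6 core subunits tested, which carry the flavin and the iron-sulfur clusters, had a median of -0.11 and 2 calls. Ndufv1, which holds the flavin, was among them (-0.28, SE 0.06, adjusted p = 0.013). The 29 accessory subunits, which surround and stabilise the core, had a median of -0.37 and 19 calls. The difference between core and accessory subunits was not tested. Ndufa2, an accessory subunit of the arm that faces the matrix, had the lowest fold change of the nuclear members. It was at 84.4, 96.5, 76.8 and 91.8 FPKM in Trauma and at 45.3, 40.1, 37.7 and 38.0 FPKM in Trauma+TGF-β1, with a log2 fold change of -1.11 (SE 0.18, adjusted p = 0.0057). The groups did not overlap. Control library 1, at 46.4 FPKM, was near the Trauma+TGF-β1 libraries, while the other Control libraries were at 83.6, 93.0 and 81.8 FPKM.

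Ndufb6, an accessory subunit of the membrane arm, was also lower in every Trauma+TGF-β1 library than in every Trauma library. It was at 69.7, 72.3, 57.6 and 79.9 FPKM in Trauma and at 43.6, 42.7, 43.4 and 39.4 FPKM in Trauma+TGF-β1 (-0.71, SE 0.12, adjusted p = 0.0069), and Control library 1 was again the lowest Control, at 49.3 FPKM. Its exons share 39.0% of their bases with Smim27 on the opposite strand, and the strand setting of the counting is not given in the sources used here, so reads of these genes cannot be told apart. Ndufs6, another subunit of the matrix arm, was at 34.1, 34.8, 29.0 and 36.7 FPKM in Trauma and at 20.0, 19.6, 21.4 and 18.4 in Trauma+TGF-β1 (-0.76, SE 0.16, adjusted p = 0.014). The most abundant nuclear members of complex I moved less than Ndufa2, Ndufb6 and Ndufs6, though not less than the complex I median of -0.32. Ndufa8 fell from 94.5 ± 1.57 to 71.0 ± 2.70 FPKM (SD, n = 4; -0.41, limma adjusted p = 0.0036) and Ndufs5 from 77.7 ± 5.40 to 62.2 ± 5.11 FPKM (SD, n = 4; -0.32, limma adjusted p = 0.017). The processed pseudogene BC002163 matches 46.9% of the Ndufs5 transcript at 99% identity or more. It held 771 reads over the 12 libraries, against 12124 on Ndufs5, so part of this level is uncertain. At the other end, Ndufs1, the largest core subunit, was at 13.8 FPKM in both groups (log2 fold change 0.01, adjusted p = 0.94), and Ndufa10 and Ndufb1-ps had fold changes of 0.04 and 0.05.

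**Figure D2:**
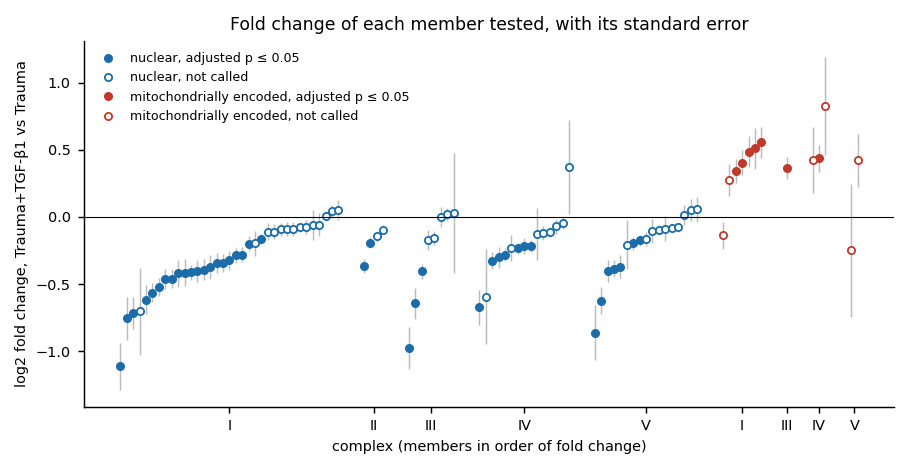
Log2 fold change of each tested member in Trauma+TGF-β1 against Trauma, by complex, with its SE as a grey line; nuclear members are blue and the mitochondrially encoded proteins red, and filled points passed an adjusted p of 0.05. Filled blue points, 40 in all, lie below 0 in each complex, and filled red points, 7 in all, lie above 0.

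Complex II, succinate dehydrogenase, which also works in the citric acid cycle and has no mitochondrially encoded subunit, had 2 of its 4 members called lower, and all 4 had a fold change below 0. Sdhd, a membrane anchor, was at 77.6, 81.7, 79.3 and 80.5 FPKM in Trauma and at 66.9, 59.5, 62.1 and 58.8 in Trauma+TGF-β1 (-0.37, SE 0.05, adjusted p = 0.0037). Sdha, the flavoprotein that oxidises succinate, was at 55.2, 58.3, 56.4 and 58.0 FPKM and then at 51.1, 49.7, 48.4 and 50.3 FPKM (-0.19, SE 0.04, adjusted p = 0.014). Neither gene's groups overlapped. The fold changes of Sdhb and Sdhc were -0.15 and -0.10, with adjusted p of 0.052 and 0.079.

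In complex III, the cytochrome bc1 complex, 3 of 8 nuclear members were called lower, and these were Uqcr11, Uqcrq and Uqcrh, small subunits outside the catalytic core. Uqcr11 (chromosome 10, 80402997 to 80406830, GRCm38) was at 106, 113, 104 and 138 FPKM in Trauma and at 66.0, 49.99, 57.0 and 61.4 FPKM in Trauma+TGF-β1 (-0.97, SE 0.16, adjusted p = 0.0061). Control library 1 was at 67.4 FPKM and the other Control libraries at 118, 109 and 94.6. The 2 most abundant members were Uqcr10, which went from 143 ± 14.2 FPKM to 127 ± 8.06 (SD, n = 4), and the Rieske iron-sulfur protein Uqcrfs1, at 108 ± 6.37 and 96.7 ± 5.73 (SD, n = 4), with fold changes of -0.17 and -0.15 that were not called. Of the core proteins, Uqcrc2 was at 56.1 ± 1.63 and 57.0 ± 2.46 FPKM (SD, n = 4), whereas Uqcrc1 was listed at 1.27 to 5.82 FPKM over the 12 libraries, and the cause of its low level was not tested.

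Complex IV, cytochrome c oxidase, was counted here with Ndufa4, a former complex I protein now placed with it. Of its 15 tested nuclear members 7 were called lower, and all 7 were among the 12 forms expressed in most tissues, each of which had a fold change below 0. Cox5b, a subunit on the matrix side, had the largest called change in this complex and went from 68.1 ± 6.50 to 42.7 ± 4.22 FPKM (SD, n = 4; -0.67, limma adjusted p = 0.011). Other genes match 45.1% of the Cox5b transcript at 99% identity or more. The closest, Gm11273, held 1725 reads over the 12 libraries, against 18027 on Cox5b, so part of this level is uncertain. Cox4i1, the common form of the largest nuclear subunit, went from 213 ± 9.78 to 183 ± 5.55 FPKM (SD, n = 4; -0.22, limma adjusted p = 0.012). The most abundant members were not called: Cox6a1 was at 463, 510, 479 and 512 FPKM in Trauma and 451, 450, 473 and 497 in Trauma+TGF-β1 (-0.07, adjusted p = 0.44), and Cox8a was at 373, 421, 378 and 456 and then at 308, 317, 365 and 396 FPKM (-0.23, adjusted p = 0.13). Both genes' groups overlapped.

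The tissue-specific or inducible forms of complex IV subunits, known from muscle, lung, testis or low oxygen, were low in these cultures. Cox6a2, the heart and muscle form, was at 4.43 to 7.81 FPKM over the 12 libraries, Cox6b2 at 0.752 to 3.16 and Cox7a1 at 0.735 to 2.77, and none of these 3 was called in any comparison. Cox4i2 held 0 to 7 reads per library, Ndufa4l2 0 to 9, Cox7b2 0 to 4 and Cox8b 0 to 3, and Cox8c had 0 reads in every library. These 5 were not tested, and their levels are at or near the limit of counting at this depth.

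In complex V, 7 of 17 nuclear members tested were called lower. They were 2 of 5 in F1, counted as the head, where ATP is made, with the central stalk. The others were 5 of 12 in the outer stalk and the membrane part. The 2 called F1 members were Atp5e and Atp5d, subunits of the central stalk. Atp5k, a small subunit of the membrane part (chromosome 5, 108433244 to 108434448, GRCm38), was at 50.4, 60.3, 55.0 and 62.2 FPKM in Trauma and at 43.3, 35.8, 33.1 and 18.5 in Trauma+TGF-β1 (-0.86, SE 0.20, adjusted p = 0.021). The groups did not overlap, and without Trauma+TGF-β1 library 4, the lowest, the fold change was -0.61. Atp5b, the catalytic subunit, was the most abundant member of complex V and stayed within a narrow range. It was at 283, 284, 280 and 286 FPKM in Trauma and at 265, 262, 274 and 268 FPKM in Trauma+TGF-β1 (-0.08, SE 0.03, adjusted p = 0.099). The groups did not overlap, and the difference did not pass the threshold. Atp5c1, the gamma subunit, was at 110 ± 3.67 and 104 ± 1.76 FPKM (SD, n = 4; -0.08, limma adjusted p = 0.16). Atp5a1, the partner of Atp5b in the F1 head, was listed at only 6.29 to 12.3 FPKM over the 12 libraries.

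**Figure D3:**
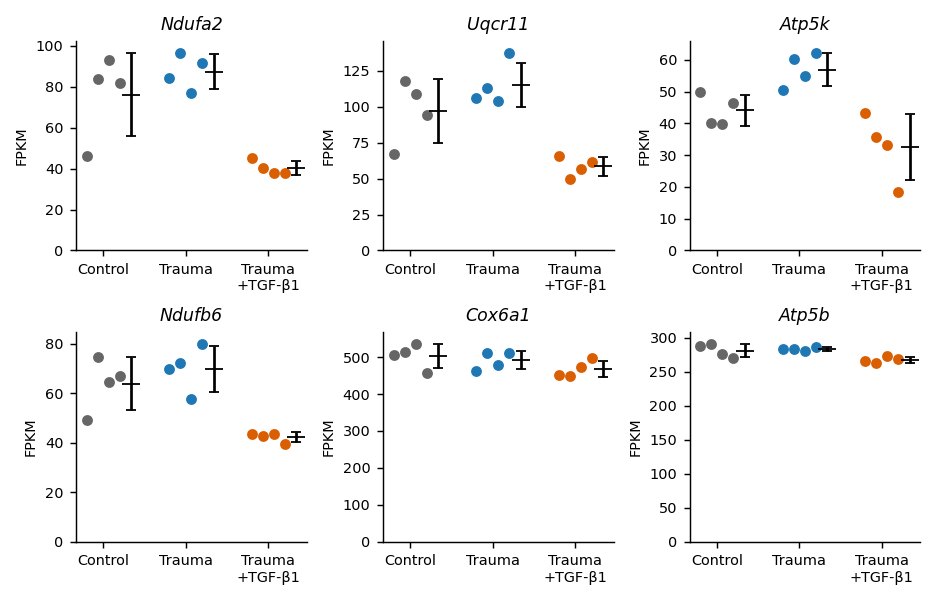
FPKM of 6 nuclear members in each library, with the mean ± SD of 4 libraries beside the points. Ndufa2, Uqcr11, Atp5k and Ndufb6 lie below every Trauma library in all 4 Trauma+TGF-β1 libraries, Control library 1 is the lowest Control for Ndufa2, Uqcr11 and Ndufb6, and Cox6a1 and Atp5b have log2 fold changes of -0.07 and -0.08 in Trauma+TGF-β1 against Trauma.

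The table lists Ndufs3, a core subunit of complex I, at 0 reads in all 12 libraries, and its neighbour on the opposite strand, Kbtbd4, at 0 as well. A processed pseudogene on chromosome 11, Gm12251, which matches the Ndufs3 transcript at 98.6% identity over 792 bases, held 1246 reads in the 12 libraries together. A second entry named Atp5o, whose bases all lie in other genes, was also at 0. These values therefore say nothing about the level of Ndufs3.

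Nuclear respiratory genes are known to be under the control of NRF1 and of ETS factors such as GABP, so the promoters were searched for GCGCANGCG, the core of the NRF1 motif, and CCGGAAG, the ETS motif, on both strands. Promoters of 67 of the 86 nuclear members were found in RefSeq (GRCm38.p6, 250 bases before to 50 after the start). The NRF1 letters occurred in 28.4% of them and in 6.25% of all 32851 promoters, and the ETS letters in 23.9% and 8.86%. Among members called lower in Trauma+TGF-β1 against Trauma, 14 of 36 promoters held the NRF1 letters, and among those tested and not called 5 of 28. For the ETS letters these counts were 8 of 36 and 7 of 28. Such matches describe letters, not bound sites, and the difference between called and other members was not tested. The last 100 bases before the start of 3 members with large falls, and of Cox6a1, which was not called, are shown 5′ to 3′ on the gene's strand, with matches to either motif in capitals. They lie at chr10:80406822-80406921 for Uqcr11, chr5:108434400-108434499 for Atp5k, chr13:73328483-73328582 for Ndufs6 and chr5:115348959-115349058 for Cox6a1, all on the minus strand.
Uqcr11: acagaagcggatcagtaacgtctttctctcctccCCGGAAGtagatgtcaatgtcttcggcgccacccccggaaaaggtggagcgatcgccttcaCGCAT
Atp5k: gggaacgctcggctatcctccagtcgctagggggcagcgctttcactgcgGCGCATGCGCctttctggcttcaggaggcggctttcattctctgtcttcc
Ndufs6: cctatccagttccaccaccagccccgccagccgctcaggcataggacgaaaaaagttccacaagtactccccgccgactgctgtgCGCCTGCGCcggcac
Cox6a1: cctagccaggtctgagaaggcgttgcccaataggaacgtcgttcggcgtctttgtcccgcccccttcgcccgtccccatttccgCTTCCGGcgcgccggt
Uqcr11 shows an ETS match and, at its end, the opening letters of an NRF1 match that runs on past the start. In Atp5k the NRF1 letters read on both strands overlap, Ndufs6 holds an NRF1 match, and Cox6a1, which was not called, has an ETS match here and 3 NRF1 matches in its full 300-base window.

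**Figure D4:**
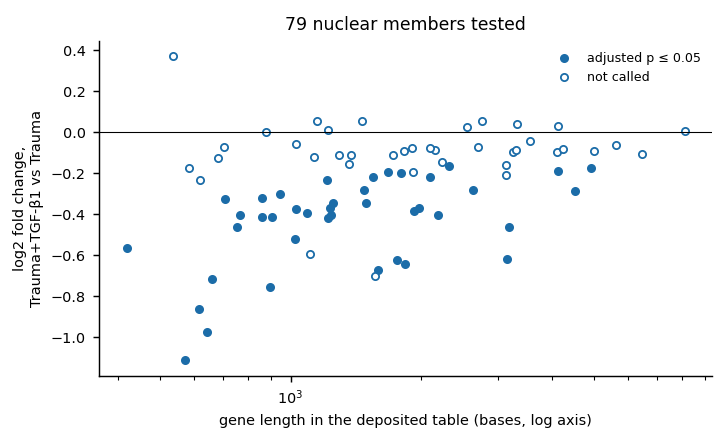
Log2 fold change in Trauma+TGF-β1 against Trauma of the 79 nuclear members tested, against the gene length in the deposited table (log axis). Filled points were called, and the lowest values, Ndufa2, Uqcr11 and Atp5k, belong to genes of 572, 641 and 616 bases.

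Short members had the larger falls. Of the 19 nuclear members under 1000 bases long 13 were called lower, with a median of -0.40, of 32 between 1000 and 2000 bases 18, with a median of -0.26, and of 28 longer ones 9, with a median of -0.10. Short protein-coding genes in general were also lower: 67 of 251 tested under 1000 bases were called lower, with a median of -0.28, 249 of 1199 between 1000 and 2000, with a median of -0.14, and 781 of 10628 above, with a median of 0.01, the members included. Across the 79 members the fold change and the length had a Spearman rho of 0.40, and across all 15016 genes tested 0.22. The members share their libraries, so this is a description. With a loess correction of each library for length, 29 members were called lower and the median was -0.14. Of all genes tested 958 were then called lower, against 1158 without the correction. Genes of the ribosomes were counted for comparison: 34 of 80 cytosolic ribosomal protein genes were called lower and 0 higher (median -0.20), and 18 of 76 mitochondrial ribosomal protein genes lower and 1 higher (median -0.14).

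Among the mitochondrially encoded protein genes, the calls lay on the higher side. In Trauma+TGF-β1 against Trauma 7 of 13 were called higher and 0 lower, where 4.4% of all genes tested were called higher, and the median was 0.42. The fold change was above 0 in 11 of the 13 and below 0 in 2, mt-Nd3 (-0.14, adjusted p = 0.41) and mt-Atp8 (-0.25, adjusted p = 0.79). Those called were mt-Nd1, mt-Nd2, mt-Nd4, mt-Nd5 and mt-Nd6, membrane subunits of complex I, mt-Cytb, the cytochrome b of complex III, and mt-Co1, the catalytic subunit of complex IV. In all 7 the libraries of the groups did not overlap, with all Trauma+TGF-β1 libraries the higher ones, as in 10.2% of all genes tested, and the fold changes lay between 0.34 and 0.56. mt-Nd2 had the highest. It was at 1590, 1608, 1641 and 1533 FPKM in Trauma and at 2122, 2549, 2034 and 2736 FPKM in Trauma+TGF-β1 (0.56, SE 0.12, adjusted p = 0.014).

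Leaving out single libraries moved the number called: it was 3 without Trauma library 1 or 2, 1 without Trauma library 4 or without Trauma+TGF-β1 library 2 or 4, and 9 without Trauma+TGF-β1 library 3, while the median stayed between 0.35 and 0.49. Calls fell over all genes too, from 661 higher with every library to 351, 241 and 245 without Trauma library 1, 2 or 4. Without Trauma+TGF-β1 library 2, 4 or 3 they were 168, 226 and 624.

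The most abundant of the 13 was mt-Co1, at 5209, 5294, 5173 and 4906 FPKM in Trauma and at 7110, 7370, 6287 and 7125 FPKM in Trauma+TGF-β1 (0.44, SE 0.10, adjusted p = 0.018). mt-Cytb was at 3265, 3297, 3338 and 3100 FPKM and then at 4097, 4381, 3899 and 4396 FPKM (0.37, SE 0.08, adjusted p = 0.018). Both rose in 4 of 4 libraries over every Trauma library, and Trauma+TGF-β1 library 3 was the lowest of its group for each. mt-Nd6, the only protein gene read from the other strand of the mitochondrial DNA, was at 1023, 1027, 1066 and 957 FPKM in Trauma and at 1275, 1664, 1127 and 1851 FPKM in Trauma+TGF-β1 (0.51, SE 0.15, adjusted p = 0.049), a call that was lost under 20 of 29 alternatives. Libraries 2 and 4 of Trauma+TGF-β1 were high and library 3 low. mt-Nd1, mt-Nd4 and mt-Nd5 had fold changes of 0.40, 0.34 and 0.49, with adjusted p of 0.020, 0.030 and 0.023.

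The other 6 genes were not called, and they were counted with far fewer reads. The 7 called genes held at least 7256 reads in each library, whereas mt-Co2 held 524 to 1182, mt-Co3 347 to 1722, mt-Atp6 352 to 697, mt-Nd3 276 to 477, mt-Nd4l 71 to 125 and mt-Atp8 2 to 13. Of these 6, all but mt-Atp8 have an annotated copy on chromosome 1, an unprocessed pseudogene. Each copy matches at 99% identity or more over at least 98.99% of the transcript. A read that fits both places is usually not assigned to either gene, and how such reads were treated is not given in the sources used here. The starts of 2 pairs are shown, from the transcripts of GENCODE vM21, to show how alike they are, with positions counted from 1 at the start of the transcript and the differing base in capitals.
mt-Nd3: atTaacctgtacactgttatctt
Gm28438: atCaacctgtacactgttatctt
mt-Co2: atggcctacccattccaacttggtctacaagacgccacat
Gm28661: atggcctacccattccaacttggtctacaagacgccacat
mt-Nd3 and Gm28438 differ by T3C and at no other of 345 aligned bases, and mt-Co2 and Gm28661 at 0 of 681. Over the 12 libraries the table gives 9589 reads to mt-Co2 and 7713 to Gm28661, 7256 to mt-Co3 and 3907 to Gm28437, and 5958 to mt-Atp6 and 6164 to Gm10925. The levels of these 5 genes are therefore uncertain. For mt-Atp8 the search for copies found a match to Gm10925 over 21.1% of the transcript, at 100% identity. The search covered annotated transcripts only, so a copy of mt-Atp8 that is not annotated would have been missed. Copies on chromosome 1 also match parts of 2 called genes. Gm28439 matches 63.6% of the mt-Nd4 transcript at 100% identity and held 2288 reads over the 12 libraries, against 300592 on mt-Nd4, and 31.3% of the mt-Co1 transcript is matched at 99% or more, with 2599 reads on the closest copy, Gm29216. Reads from these stretches carry the same uncertainty. mt-Co2, a catalytic subunit of complex IV, was at 63.8, 55.0, 89.0 and 58.0 FPKM in Trauma and at 106, 108, 47.3 and 108 FPKM in Trauma+TGF-β1 (0.42, adjusted p = 0.28), and mt-Co3 at 36.4, 33.0, 40.9 and 32.0 and then at 144, 74.5, 27.7 and 52.3 FPKM (0.83, adjusted p = 0.16). In both, library 3 of Trauma+TGF-β1 lay below every Trauma library.

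**Figure D5:**
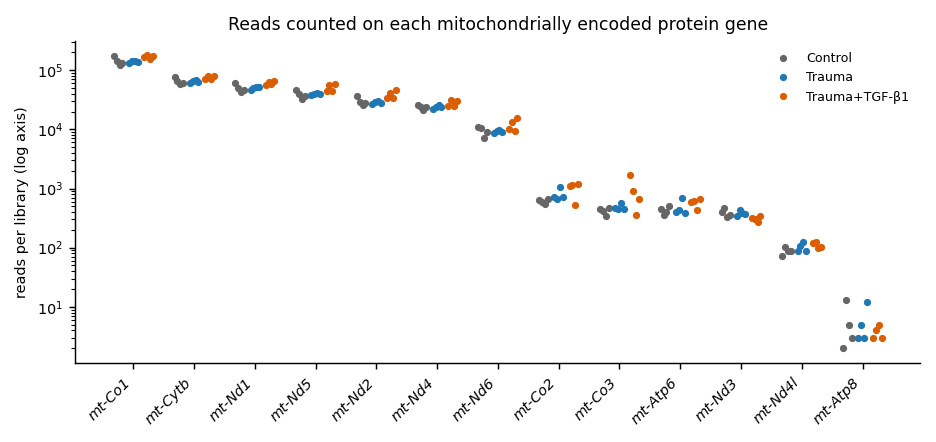
Reads counted on each of the 13 mitochondrially encoded protein genes in each library (log axis), in order of their sum. The 7 genes on the left hold at least 7256 reads in every library, and the 5 that follow, which have near-identical copies on chromosome 1, and mt-Atp8 hold at most 1722.

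The mitochondrial ribosomal RNAs, which come from the same long transcripts, had fold changes of 0.22 (mt-Rnr1) and 0.31 (mt-Rnr2) in this comparison, with adjusted p of 0.066 and 0.071. In both the 4 Trauma+TGF-β1 libraries lay above the 4 of Trauma, and both were called higher by voom (adjusted p = 0.015 and 0.012) and by limma without Control library 1 (adjusted p = 0.014 and 0.013). That library is not part of this comparison, so leaving it out altered only the shared estimate of spread. Both settings called more genes of all kinds higher, 1094 and 997 against 661. Of the 22 transfer RNA genes 17 were tested, and 2 were called higher, mt-Ts2 (0.91, adjusted p = 0.020) and mt-Tp (0.49, adjusted p = 0.044), where 4.4% of all genes tested were called higher. Transfer RNAs are too short to be caught well by such libraries, and their share of reads was at most 0.0117%.

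The mitochondrial transcripts are poor in G and C. The median GC content of the 13 protein genes was 37.1%, against 49.6% for all genes tested and 50.2% for the nuclear members. The libraries differed in how their levels ran with GC content. The Spearman rho of each gene's deviation from its mean with GC was between 0.18 and 0.25 in Trauma, between -0.43 and -0.15 in Trauma+TGF-β1, -0.20 in Control library 1 and between 0.04 and 0.32 in the other Control libraries, over the 14699 genes with a known GC content. With a loess correction of each library for GC content, 2 of the 13 were called higher and the median was 0.23. With GC and length corrected in turn, chosen after seeing the data, 6 were called higher and the median was 0.29. Of all genes tested 661 were called higher without a correction, 308 with that for GC and 241 with both. The nuclear members had 35 called lower and a median of -0.21 with the GC correction, where 600 of all genes were called lower, against 1158 without it. All fold changes of mitochondrial genes given here carry this limit.

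Against uninjured Control, too, the called nuclear members were lower in Trauma+TGF-β1. Of the 79 nuclear members 38 were called lower and 0 higher, where 10.4% of all genes tested were called lower and 6.14% higher, and the median was -0.18. The count was 24 without Control library 2 or Trauma+TGF-β1 library 2, and 25 without Control library 3. Of all genes tested 1565 were called lower with every library, and 940, 967 and 947 without these, in the order named. This comparison shares its Trauma+TGF-β1 libraries with the previous one. By complex, 19 of 35 were called lower in complex I, 1 of 4 in complex II, 3 of 8 in complex III, 8 of 15 in complex IV and 7 of 17 in complex V. The named changes were those of Ndufa2 (-0.87, SE 0.18, adjusted p = 0.0067), Uqcr11 (-0.71, SE 0.16, adjusted p = 0.010) and Ndufb6 (-0.58, SE 0.12, adjusted p = 0.0074). In Ndufa2 the highest Trauma+TGF-β1 library, at 45.3 FPKM, lay just under Control library 1, at 46.4, and in Uqcr11 the highest, at 66.0, just under 67.4. Without Control library 1 these 3 fold changes were -1.10, -0.87 and -0.70, with adjusted p of 3.1e-05, 0.00057 and 0.00060, and over all members 38 were called lower and 1, Ndufb1-ps, higher, with a median of -0.18.

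Of the 13 mitochondrially encoded protein genes 3 were called higher than in Control, mt-Nd1, mt-Nd2 and mt-Nd5, with fold changes of 0.30, 0.39 and 0.40 and adjusted p of 0.049, 0.041 and 0.037, and the median of the 13 was 0.37, or 0.41 without Control library 1. The fold change was above 0 in 11 of the 13 and below 0 in mt-Nd3 (-0.29, adjusted p = 0.075) and mt-Atp8 (-0.27, adjusted p = 0.76). mt-Nd1 was at 4072, 3064, 2876 and 3106 FPKM in Control and at 3850, 4195, 3697 and 4282 in Trauma+TGF-β1, so that Control library 1 lay inside the other group. Without it 6 genes were called higher, and the fold changes of the 3 were 0.41, 0.50 and 0.51. The calls were 8 without Trauma+TGF-β1 library 3, and 0 without Control library 2 or 4, Trauma library 1 or 2, or Trauma+TGF-β1 library 2 or 4, so that any 1 of these libraries decides them. Of all genes tested 922 were called higher with every library and 843 without Trauma+TGF-β1 library 3. Without any 1 of the others just named, between 538 and 835 were. Without Control library 3 mt-Nd3 alone was called, lower, and without Trauma library 4 a single gene was called higher. By library, the median difference of the 7 well-counted genes from the mean of Control libraries 2 to 4 was 0.43 in Control library 1, between -0.11 and 0.01 in Trauma, and 0.35, 0.48, 0.22 and 0.51 in the 4 Trauma+TGF-β1 libraries. For the nuclear members Control library 1 was at -0.05, within the -0.05 to 0.03 of the others, although Ndufa2, Uqcr11, Ndufb6, Ndufs6 and Cox5b were each lowest of their group there.

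The other RNAs of the mitochondrion were not called higher than in Control. mt-Rnr1 had a fold change of -0.08 (adjusted p = 0.48) and mt-Rnr2 of 0.06 (adjusted p = 0.72). Of the 17 transfer RNA genes tested 0 were called higher and 2 (11.8%) lower. That is near the 10.4% of all genes tested that were called lower, with 6.14% called higher. The 2 were mt-Tg (-1.68, adjusted p = 0.018) and mt-Tl2 (-0.78, adjusted p = 0.040), which held 4 to 47 and 29 to 123 reads per library. Without Control library 1 these values were -1.62 (adjusted p = 0.028) and -0.86 (adjusted p = 0.032), and those of the ribosomal RNAs stayed uncalled.

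Other genes that serve the chain were counted by list, and the shares of all genes tested to read them against are 7.71% called lower and 4.4% higher in Trauma+TGF-β1 against Trauma. The list of assembly factors also held Ndufab1, which is a subunit of complex I, and Atpif1, an inhibitor of complex V. Of 17 electron carriers and ubiquinone synthesis genes, 3 were called lower and 1 higher in that comparison. Cycs, the cytochrome c that carries electrons from complex III to complex IV, fell by 0.30 (adjusted p = 0.0047), and Coq7, an enzyme of ubiquinone synthesis, by 0.46 (adjusted p = 0.043), while Pdss1, which makes the ubiquinone tail, rose by 0.38 (adjusted p = 0.038). Of 44 tested assembly factors 9 were called lower and 1 higher. Cox11, which delivers copper to complex IV, had a fold change of -0.98 (adjusted p = 0.022), Uqcc3, an assembly factor of complex III, -0.63 (adjusted p = 0.016) and Ndufaf8, one of complex I, -0.60 (adjusted p = 0.016). Of 28 tested genes of mitochondrial DNA transcription, RNA processing and replication 1 was called lower, Fastk (-0.19, adjusted p = 0.021), and 2 higher, Supv3l1, a helicase of mitochondrial RNA decay (0.25, adjusted p = 0.018), and Mterf3 (0.34, adjusted p = 0.027).

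Among 11 tested regulators of mitochondrial biogenesis, Esrra, a nuclear receptor that acts on respiratory genes, fell by 0.55 (adjusted p = 0.016) and Pprc1, a coactivator related to PGC-1, rose by 0.19 (adjusted p = 0.037). Of 13 citric acid cycle genes 4 were called lower, with Suclg2, a subunit of succinyl-CoA ligase, at -0.34 (adjusted p = 0.034) and Idh3b, of isocitrate dehydrogenase, at -0.24 (adjusted p = 0.0088), and 0 were called higher. In Trauma against Control, where 2.7% of all genes tested were called lower and 3.3% higher, these lists gave 1, 1, 0, 0 and 1 higher, in the order named, and 1 lower in all, Supv3l1, which fell by 0.26 (adjusted p = 0.016). Without Control library 1 they gave 1, 0, 0, 0 and 1 higher and again Supv3l1 lower. In Trauma+TGF-β1 against Control, where 10.4% of all genes tested were called lower and 6.14% higher, they gave 2, 9, 1, 1 and 2 lower and 1, 0, 0, 0 and 0 higher. Without Control library 1 these counts were 3, 8, 2, 2 and 2 lower and 1, 2, 2, 0 and 0 higher, where 13.7% of all genes tested were called lower and 8.87% higher.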

How the data were processed

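Gene expression was measured by RNA-seq in cultured mouse cortical neurons, in 3 groups of 4 libraries. The methods speak of 6 samples, whereas the deposited table holds 12 libraries. The authors aligned paired-end reads with HISAT2 2.0.5 to mm10, per the submitters' processing notes, assembled transcripts with StringTie, counted reads on genes with featureCounts and deposited FPKM. The deposited gene length, in bases (other), is the one they used for FPKM. FPKM multiplied by length gave whole multiples of one step per library (tolerance 0.05) for 100% of values above 0, which recovers the reads. Median-of-ratios factors recomputed from the table were 1, so FPKM were used as scaled by the authors.

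Log2(FPKM + 0.1) of the 15016 genes with a mean of at least 0.5 FPKM was fitted with limma 3.58.1 in R 4.3.3 (eBayes with a trend, 12 libraries, no block) and adjusted by Benjamini-Hochberg within each comparison, at a threshold of 0.05. The authors' count test was not run. The fit was tested on simulated data. The members, lists and tests were chosen with earlier results of these data known. Genes named by rule were the 13 mitochondrial protein genes and 2 ribosomal RNAs, the 2 most abundant nuclear members of each complex, the 3 called members with the largest change in each direction and comparison (more than 3 reads in a library of each group), and 8 tissue-specific forms. Examples from the other lists were called genes with large changes, and all other members named were chosen after their values were seen. Coordinates are those of the table, and were the same in GENCODE vM21 (GRCm38) for 123 of 123 members. Copies were searched among the transcripts of GENCODE vM21 with blastn at 95% identity or more. The alternatives were other pseudocounts (1 and 0.01) and filters (none, or 1 FPKM), FPKM as deposited, quantile normalization, the 2 groups compared alone, eBayes without a trend, a replicate block, loess corrections (span 0.3) for length and GC content, a fit restricted to protein-coding genes, voom on recovered reads and each library left out. Scaling by total reads and the combined GC and length correction were added after the data were seen. Python 3.11.15 was used with pandas 2.3.3, numpy 2.4.6 and matplotlib 3.10.9. The values of some single genes are not reported here.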

Additional observations from a re-analysis of the deposited data

Results flagged for a closer look

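In 105 groups of 4 libraries, over the named genes with more than 10 reads in some library and 3 shares of reads, the library farthest from the others was compared with Dixon's 95% critical value for 4 values, which chance passes in about 1 of 20 groups, and 5 passed. In Trauma+TGF-β1 library 3, mt-Rnr1 was at 552 FPKM, mt-Co2 at 47.3 FPKM and the muscle form Cox7a1 at 2.77 FPKM, the first 2 below and the last above the other 3 libraries. mt-Atp6 was at 57.9 FPKM in Trauma library 3, above the others of its group. Cox6a2, another muscle form, was at 7.26 FPKM in Control library 2, above the other Control libraries. No cause of these values was tested.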

How the results depend on the processing

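Under 29 alternatives, 12 of which left out 1 library, the medians of the nuclear and the mitochondrially encoded protein genes kept their sign in both comparisons that involve TGF-β1. Among the 29, FPKM as deposited repeats the main fit, because the recomputed factors were 1, so its outcome was fixed beforehand. The nuclear count in Trauma+TGF-β1 against Trauma (40) lay between 22 and 43, with 0 members called higher except 1 under the combined correction of GC and length, and between 28 and 42 with 1 library left out. It was 22 with the length correction and replicate block, where 654 of all genes tested were called lower, against 1158 in the main fit. The nuclear median of -0.20 was -0.13 with quantile normalization and -0.14 with the length correction, with or without the block. In Trauma+TGF-β1 against Control the nuclear count (38) was 18 with quantile normalization, 25 with the length correction and replicate block, and 24 to 39 with 1 library left out, and the median (-0.18) was -0.070 with quantile normalization, -0.14 with the length correction, with or without the block, -0.14 with the combined correction and -0.14 with scaling by total reads. Of all genes tested 1565 were called lower against Control in the main fit, 918 with quantile normalization and 1491 with the length correction and replicate block. In Trauma against Control the nuclear count (0) was 1 with quantile normalization (Sdha), 1 with the GC correction and replicate block, with protein-coding genes only or with voom (Ndufb3 each time), 3 with scaling by total reads, and 0 to 2 with 1 library left out, all of them higher. Of all genes tested 496 were called higher in the main fit, and 459, 553, 618, 623 and 655 under these settings, in the order named.

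The mitochondrial count in Trauma+TGF-β1 against Trauma (7) was 1 without a filter, where more genes are tested, 3 with quantile normalization, 2 with the GC correction, 1 with the GC correction and replicate block, and 1 to 9 with 1 library left out. Of all genes tested 661 were called higher in the main fit. They were 319 without a filter, 1125 with quantile normalization, 308 with the GC correction and 286 with the GC correction and replicate block. The mitochondrial median (0.42) was 0.23 with the GC correction, with or without the block, and 0.29 with the combined correction. Against Control the mitochondrial count (3) was 0 without a filter, with only the 2 groups compared or with eBayes without a trend, 5 with protein-coding genes only (4 higher), 9 with voom, 5 with scaling by total reads, and 0 to 8 with 1 library left out. Of all genes tested 922 were called higher against Control in the main fit. They were 636 without a filter, 565 with only the 2 groups compared and 934 with eBayes without a trend. With protein-coding genes only, voom and scaling by total reads they were 1046, 1186 and 1340. With the replicate block, with the GC correction and with both the mitochondrial count was 1, and the 1 gene, mt-Nd3, was lower. Apart from what the settings' own construction shows, the cause of these shifts was not tested. Whether the replicate numbers pair the libraries was not settled. Deviations from the group means correlated between -0.01 and 0.08 for same-numbered libraries and between -0.09 and 0.07 for differently numbered ones. These ranges overlap, and small correlations cannot exclude a shared culture or batch. The replicate block alone gave 37 nuclear and 5 mitochondrial calls in Trauma+TGF-β1 against Trauma and 32 nuclear calls against Control.

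Of 17 single-gene calls tried under each alternative (492 values), 368 stayed called in the same direction, 124 passed the threshold no longer and 0 changed sign. The 368 include 17 under FPKM as deposited, which stayed by construction. The calls of Ndufa2 and Uqcr11 in both comparisons that involve TGF-β1 held under all 29, as did that of Ndufb6 in Trauma+TGF-β1 against Control, and mt-Rnr1 in Trauma against Control was lost under 10 of 28. Depth limits the forms with under 10 reads per library. mt-Atp8 held only 61 reads over the 12 libraries, and the cause of that low count was not tested.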
